A study of Rattus norvegicus with 20 samples.

Results

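The genes described here are regulators and targets of the ATF4 and CHOP arm of the cellular stress response, measured in the INS-1 line, which derives from a rat insulinoma, secretes insulin and is widely used as a model of beta cells. Of 10 genes chosen by name (Trib3, Chac1, Ddit3, Atf4, Atf5, Sesn2, Cebpb, Cebpg, Ppp1r15a and Vldlr), 9 had a probe set with exactly 1 gene symbol in the platform annotation, among 18166 genes named in this way, and Sesn2 was not analysed here. Each of the 9 was measured by 1 probe set. They were chosen with their levels across the treatment groups in view, so their levels, differences and calls between treatments are given as a description, without a test of the choice.

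The study exposed the line to monomeric islet amyloid polypeptide (IAPP, 77 uM), which beta cells co-secrete with insulin and which can form amyloid, with or without C4b-binding protein (C4BP, 0.6 uM), known for inhibiting complement, and RNA was taken after 10 h. The sample fields give both proteins at 300 ug/ml. Controls received 1% DMSO, in which IAPP was dissolved, or C4BP alone, and 20 arrays fall by their titles into 4 groups of 5, named DMSO, IAPP, C4BPD and C4BP. The titles do not spell out the last pair, for which the conditions that remain are C4BP with IAPP and C4BP without it. C4BPD is read here as C4BP without IAPP and C4BP as C4BP with IAPP, which is likely but not settled by the labels, and both are called by their titles. A separate treatment field names the same treatment as the title in only 3 of 20 arrays under this reading, so every group rests on the titles. The cells had been kept as 5 clones for 10 passages. The labels do not say that the title numbers 1 to 5 are the clones, so p-values measure only the spread between these samples.

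ATF4 is a transcription factor made when kinases that sense amino acid shortage, heme shortage, viral RNA or unfolded protein in the endoplasmic reticulum phosphorylate the initiation factor eIF2 alpha. General translation then slows, while the ATF4 message is translated more, so that ATF4 protein can change without its message. ATF4 binds DNA with C/EBP partners and raises genes of amino acid supply together with the further regulators Atf5, Ddit3 (CHOP), Trib3 and Chac1. Arrays measure messages only, and beta cells, which make large amounts of secreted protein, are known to depend on this pathway. In RNA from whole wells, fewer cells and less RNA per cell cannot be told apart.

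ATF4 and its C/EBP partners are known to bind a composite element, the C/EBP-ATF response element. Its core, searched here as TGATGNAA on both strands, occurred in the 250 bases before the start of 2 of the 10 genes, Trib3 and Chac1, and in 3.4% of 33469 RefSeq windows of the same length (build GRCr8). The cyclic AMP response element TGACGTCA occurred in 1 of the 10, Ppp1r15a, and in 1.59% of all windows. The shorter ATF core TGACG, which overlaps TGACGTCA, occurred in 18.2% of all windows and in those of Trib3, Chac1, Atf4, Cebpb and Ppp1r15a. All 10 genes matched by symbol. The windows of Trib3 and Chac1 are shown because these had the largest differences, and those of Ddit3 and Ppp1r15a, both textbook targets of the pathway, because their values followed other patterns. Capitals mark TGATGNAA or TGACGTCA, which in Trib3 and Chac1 is read from the opposite strand.
Trib3: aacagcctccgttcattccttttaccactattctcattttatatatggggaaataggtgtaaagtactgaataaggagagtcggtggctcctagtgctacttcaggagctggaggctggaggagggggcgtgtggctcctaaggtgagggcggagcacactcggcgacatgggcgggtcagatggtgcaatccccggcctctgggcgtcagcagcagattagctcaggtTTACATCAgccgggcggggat
Chac1: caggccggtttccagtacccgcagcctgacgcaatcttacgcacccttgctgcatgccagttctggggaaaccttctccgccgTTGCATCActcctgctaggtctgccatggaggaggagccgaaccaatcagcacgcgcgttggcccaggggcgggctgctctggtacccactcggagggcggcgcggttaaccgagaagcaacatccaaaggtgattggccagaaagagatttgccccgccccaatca
Ddit3: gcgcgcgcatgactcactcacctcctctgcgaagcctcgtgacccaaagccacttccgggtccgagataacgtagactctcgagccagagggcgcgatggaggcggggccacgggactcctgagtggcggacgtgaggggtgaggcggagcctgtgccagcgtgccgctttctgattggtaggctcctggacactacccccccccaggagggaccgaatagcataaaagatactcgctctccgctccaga
Ppp1r15a: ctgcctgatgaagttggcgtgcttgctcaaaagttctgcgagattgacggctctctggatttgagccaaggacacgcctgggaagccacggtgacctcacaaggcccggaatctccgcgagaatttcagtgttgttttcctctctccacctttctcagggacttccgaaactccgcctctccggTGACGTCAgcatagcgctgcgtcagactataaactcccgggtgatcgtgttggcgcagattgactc
These windows lie at chr3:161275534-161275783 (minus strand), chr3:126795881-126796130 (plus), chr7:65001445-65001694 (plus) and chr1:105139597-105139846 (minus). In Trib3 the match runs from 21 to 14 bases before the start and reads TGATGTAA, and in Chac1 from 167 to 160 bases before it, reading TGATGCAA. The match of Ppp1r15a lies 66 to 59 bases before its start. A match is a description of letters in this window, and the other genes may hold such letters outside it.

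Values are probe set intensities as the authors normalized them, on a linear scale, and array medians ran from 170.01 to 182.36. The lowest group mean of any of the 9 genes was 257, above the median probe set at 177. All 10 measured beta-cell markers lay above that median (448 to 11800). So did 2 of 3 hormone genes of other islet cells, with Gcg highest (9960) and Ppy lowest (112). All acinar, duct, endothelial and immune markers measured lay below the median. Of the fibroblast markers, 3 of 4 lay above it, at most 222. In comparisons with DMSO 4 of the 10 beta-cell markers were called lower: Mafa (-0.26) and Slc2a2 (-0.11) in IAPP, and both of these (-0.25 and -0.14), Nkx2-2 (-0.25) and Slc30a8 (-0.17) in C4BP. Gcg was lower in IAPP (-0.13). Of all genes 3.38% were called in IAPP vs DMSO and 5.96% in C4BP vs DMSO, in either direction. The summed intensity of the 10 ran from 60434 to 63957 in DMSO, 57791 to 60458 in IAPP, 60307 to 64249 in C4BPD and 56826 to 60764 in C4BP, and that of the 3 hormone genes from 10265 to 10962, 9467 to 9933, 10240 to 10633 and 10105 to 10698. No marker of the other classes was called, and the part of these levels in the results below was not tested. The number of arrays limits the precision.

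Trib3 and Chac1 were higher than DMSO in all 3 other groups, by 1.86 to 2.52 times. In the C4BP wells neither gene reached the sum of its differences in IAPP and C4BPD. Trib3 encodes a pseudokinase that binds AKT and ATF4 and damps the response that induces it. Its intensities were 312, 209, 263, 256 and 256 in DMSO, in the order of the title numbers. They were 597, 636, 511, 899 and 662 in IAPP. The C4BPD arrays gave 556, 464, 520, 421 and 447, and the C4BP arrays 664, 581, 573, 606 and 610. Every array of the other groups lay above every DMSO array, and IAPP number 4 stood highest of all. The ratio to DMSO (ratio of geometric means, 95% interval from the fit) was 2.52 (2.13 to 2.99) in IAPP, 1.86 (1.57 to 2.21) in C4BPD and 2.36 (1.99 to 2.79) in C4BP. From low to high, group means ran DMSO (259 ± 36.5; SD, n = 5 here and below), C4BPD (482 ± 55.1), C4BP (607 ± 35.6) and IAPP (661 ± 145). C4BP and IAPP overlapped, with a log2 difference of -0.10 (95% interval -0.34 to 0.15), and C4BPD overlapped IAPP but not C4BP.

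Chac1 encodes an enzyme that cleaves glutathione and is a known target of ATF4. Its intensities were 360, 398, 366, 331 and 292 in DMSO and 710, 656, 596, 682 and 730 in IAPP. C4BPD gave 931, 654, 780, 678 and 763, and C4BP 773, 802, 811, 804 and 805. The lowest array of the 3 other groups, at 596, was above the highest DMSO array, at 398. Chac1 was 1.94 times DMSO (1.71 to 2.19) in IAPP, 2.17 times (1.92 to 2.46) in C4BPD and 2.3 times (2.03 to 2.6) in C4BP. Its order differed from that of Trib3, with means of 349.5 ± 39.8 in DMSO, 675 ± 52.05 in IAPP, 761 ± 109 in C4BPD and 799 ± 15.1 in C4BP. All C4BP arrays lay above all IAPP arrays, by 0.25 on the log2 scale (0.07 to 0.42), while C4BPD overlapped both.

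**Figure D1:**
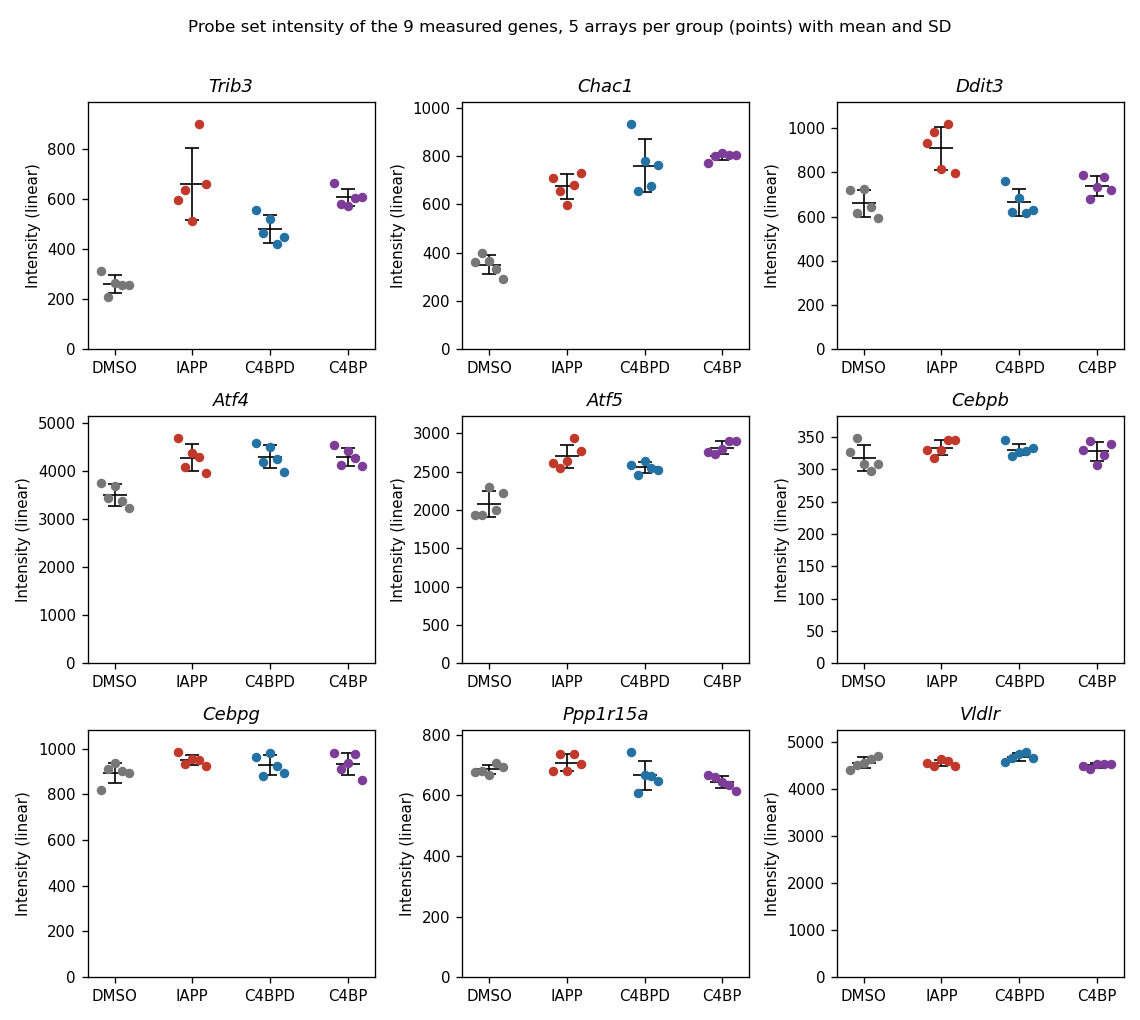
Intensity (linear axis from 0) of the 9 measured genes in DMSO, IAPP, C4BPD and C4BP; each point is 1 array, and the bar with whiskers is the mean and SD of 5 arrays. Trib3, Chac1, Atf4 and Atf5 sit above DMSO in all 3 other groups, Ddit3 is highest in IAPP (798 to 1017), and the other genes lie close together in all groups.

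Atf4 and Atf5, the transcription factors, were higher than DMSO in the same 3 groups, by less. Atf4 gave 3746, 3437, 3687, 3368 and 3218 in DMSO and 4669, 4073, 4366, 4279 and 3961 in IAPP. It gave 4566, 4176, 4489, 4245 and 3965 in C4BPD and 4541, 4123, 4407, 4270 and 4092 in C4BP. The 3 other groups lay on top of each other and above all DMSO arrays, at 1.22 times DMSO in IAPP and 1.23 times in C4BPD and C4BP. Among those 3 groups the differences were 0.00 to 0.01 on the log2 scale, with intervals reaching from -0.11 to 0.12.

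Atf5 is a relative of ATF4 that is known, like it, to be raised by translation when eIF2 alpha is phosphorylated and to act in the mitochondrial stress response. It measured 1938, 1932, 2301, 2001 and 2224 in DMSO. In IAPP it measured 2617, 2552, 2637, 2933 and 2767, in C4BPD 2593, 2460, 2644, 2553 and 2527, and in C4BP 2758, 2727, 2797, 2899 and 2896. No array of the 3 groups fell into the DMSO range. Relative to DMSO it stood at 1.3 times in IAPP, 1.23 times in C4BPD and 1.36 times in C4BP. Group means were 2079 ± 172 in DMSO, 2555 ± 69.3 in C4BPD, 2701 ± 151 in IAPP and 2815 ± 79 in C4BP. Atf5 in C4BP lay above all C4BPD arrays, by 0.14 on the log2 scale (0.03 to 0.24), and overlapped IAPP.

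Ddit3, which encodes CHOP, the factor that links prolonged stress to cell death, followed another pattern: it was higher in IAPP and lay near DMSO in C4BPD. Its intensities were 720, 617, 726, 645 and 594 in DMSO. They were 931, 984, 817, 1017 and 798 in IAPP, the only one of the 3 other groups whose arrays all lay above DMSO. C4BPD gave 763, 623, 685, 618 and 631, and C4BP 787, 678, 736, 777 and 719, both overlapping DMSO. The ratio to DMSO was 1.38 (1.23 to 1.54) in IAPP, 1.01 (0.899 to 1.12) in C4BPD and 1.12 (1 to 1.25) in C4BP. C4BP arrays all lay below IAPP arrays, 787 against 798 at the nearest, by -0.29 on the log2 scale (-0.45 to -0.13). The difference of C4BPD from IAPP was -0.45 (-0.61 to -0.29). In order, DMSO (660 ± 60.2) and C4BPD (664 ± 61.3) did not differ beyond their spread, C4BP followed at 739.5 ± 44.4, and IAPP stood at 909 ± 98.1.

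The remaining 4 genes stayed within 0.14 on the log2 scale in every pairwise comparison. Cebpb encodes a C/EBP factor that partners ATF4, with means from 318 ± 20.2 in DMSO to 334 ± 11.8 in IAPP. Cebpg, a C/EBP protein without an activation domain that pairs with ATF4, ran from 894 ± 44.2 in DMSO to 950 ± 22.7 in IAPP. Both overlapped among all groups. The interval of their difference from DMSO was -0.02 to 0.17 for Cebpb and 0.00 to 0.18 for Cebpg in IAPP, so that ratios of up to 1.12 and 1.13 lie within them. Ppp1r15a encodes GADD34, the phosphatase subunit that reverses eIF2 alpha phosphorylation and ends the response. Its arrays read 677, 682, 668, 708 and 695 in DMSO and 682, 737, 680, 738 and 704 in IAPP. They read 742, 609, 668, 664 and 648 in C4BPD and 667, 662, 643, 635 and 615 in C4BP. The C4BP arrays thus lay just below those of DMSO and of IAPP, at -0.09 (-0.19 to 0.00) and -0.14 (-0.23 to -0.04) on the log2 scale, neither called by the fit. Vldlr, a lipoprotein receptor that ATF4 is known to raise under ER stress, had means between 4498 ± 45.5 in C4BP and 4677 ± 80.2 in C4BPD. Its differences from DMSO were 0.00, 0.04 and -0.02 in IAPP, C4BPD and C4BP, each with an SE of 0.029.

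A gene was called where limma's adjusted p, over all 18166 genes, was under 0.05. In IAPP vs DMSO 5 of the 9 genes were called higher, beside 1.41% of all genes called higher, the 5 being Trib3, Chac1, Ddit3, Atf4 and Atf5. In C4BPD vs DMSO 4 were called higher (all genes, 1.17%), and in C4BP vs DMSO 4 (2.72%), in both Trib3, Chac1, Atf4 and Atf5. C4BPD vs IAPP had 2 lower, Trib3 and Ddit3 (1.82% lower and 5.46% in either direction), and fitting the title number as a block, which the arrays of this comparison bear out, left that number at 2, while the share of all genes called in either direction was then 10.5%. That call of Trib3 was lost in the fits without IAPP 2, IAPP 4, IAPP 5, C4BPD 2, C4BPD 4 or C4BPD 5, where its difference was -0.45 to -0.32. In C4BP vs IAPP and C4BP vs C4BPD none of the 9 was called by limma without a block, although 0.606% and 2.37% of all genes were. At an unadjusted p under 0.05, 3 and 2 of the 9 passed, beside 7.93% and 13.7% of all genes. With the title number as a block 1 was called in C4BP vs IAPP, Ddit3 lower (limma, adjusted p = 0.0345), beside 1.94% of all genes. C4BP vs C4BPD then had 0, beside 5.27%. Array ranges that did not overlap marked the same 5 genes in IAPP vs DMSO (2.14% of all genes higher in this way) and the same 4 in C4BPD vs DMSO (1.99%) and C4BP vs DMSO (2.85%), the last with Ppp1r15a on the lower side (3.28%). In C4BP vs IAPP they set apart Chac1 above (1.48%) and Ddit3 and Ppp1r15a below (0.903%), in C4BP vs C4BPD Trib3 and Atf5 above (1.36%) and Vldlr below (2.37%), and in C4BPD vs IAPP Ddit3 below (2.81%). The calls came from contrasts in view when the genes were chosen, so these counts describe them only. Comparisons with DMSO share its 5 arrays.

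**Figure D2:**
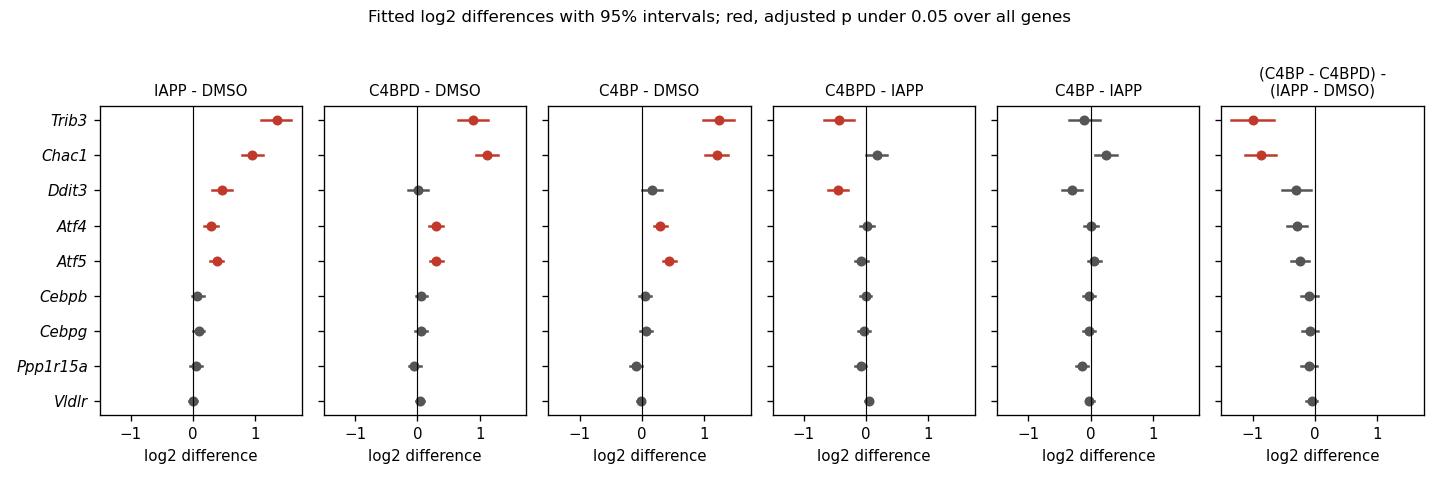
Fitted log2 differences (points) with 95% intervals (lines) of the 9 genes in 5 comparisons and in the interaction, red where the adjusted p was under 0.05. Trib3 and Chac1 lie farthest from 0 in the first 3 panels and in the last, at -1.0 and -0.87, and Ddit3 is to the left in both comparisons with IAPP.

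How IAPP and C4BP combine was asked with the interaction, the C4BP minus C4BPD difference less the IAPP minus DMSO difference, which rests on the reading of the titles given above. Trib3 stood 1.34 above DMSO on the log2 scale in IAPP and 0.90 in C4BPD, together 2.23, and the C4BP wells measured 1.24. The interaction was thus -1.0 ± 0.17 (SE). For Chac1 the separate differences, 0.95 and 1.12, add to 2.07, and 1.20 was measured, an interaction of -0.87 ± 0.12. Taken back to intensity, these log2 sums, which multiply the ratios, give 1210 for Trib3 and 1460 for Chac1, where 606 and 799 were measured (geometric means). A sum of intensity differences would be lower and was not computed, so the size of the shortfall depends on the scale. Atf4 stood at 0.30 against a sum of 0.59 and Atf5 at 0.44 against 0.68, and their interactions were -0.29 ± 0.08 and -0.24 ± 0.07. Ddit3, higher in IAPP alone among the separate groups, had an interaction of -0.30 ± 0.11. All 9 were below 0, at a median of -0.24 where the median of all genes was 0.009. The interaction was in view when the genes were chosen, so this and the calls below describe them only. In the fit without a block 9 of all 18166 genes were called in the interaction (0.0495%), all below 0, and Chac1 and Trib3 were among them, with the 2 largest differences of all genes. With the title number as a block Atf4 was called as well (limma, adjusted p = 0.00311), beside 0.0991% of all genes. The call of Trib3 was lost in the fits without DMSO 2, IAPP 2, C4BPD 2, C4BPD 3, C4BPD 5, C4BP 3 or C4BP 4, at -1.02 to -0.92, and that of Chac1 in none of the fits without 1 array.

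**Figure D3:**
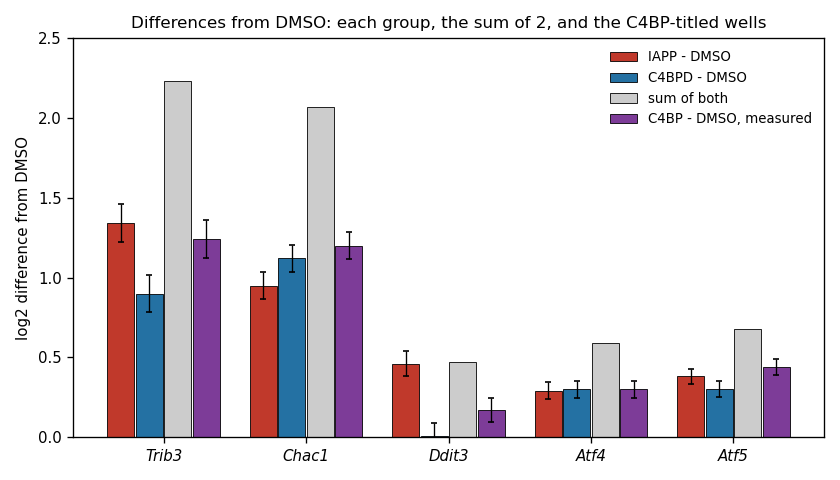
Log2 differences from DMSO for 5 genes: IAPP, C4BPD, the sum of these, and the C4BP wells as measured, with the SE of the fit on the measured bars. The measured C4BP bar is below the sum for each gene, 1.24 against 2.23 for Trib3 and 1.20 against 2.07 for Chac1, and for Trib3, Chac1, Atf4 and Atf5 it lies near the higher of the separate differences.

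Variation by title number, which the choice of genes did not use, was tested with limma's F test across numbers 1 to 5 in a model that also held the group. Atf4 differed by number (adjusted p = 0.00146), with number 1 highest, number 3 next and number 5 lowest in each of the 4 groups, a spread of 0.20 on the log2 scale from 0.10 above to 0.10 below the group means. Its DMSO arrays numbered 1 and 5 read 3746 and 3218. None of the other 8 genes passed. Ddit3 came nearest, at an adjusted p of 0.212 and a spread of 0.23, then Atf5 at 0.257. Of all genes 15.7% passed, and 1 of the 9 is near that share. The numbers also follow the array numbers in the titles, in which each number holds 4 consecutive arrays, so clone and handling order cannot be told apart, and array medians ran from 170 to 174 in number 1 and 178 to 182 in number 5. Within each number the array numbers run IAPP, C4BP, C4BPD and DMSO, so treatment and place in that order cannot be told apart either. Atf4 kept its call with arrays centred on their median (adjusted p = 0.000476) and lost it without all arrays of number 1 (0.0837).

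**Figure D4:**
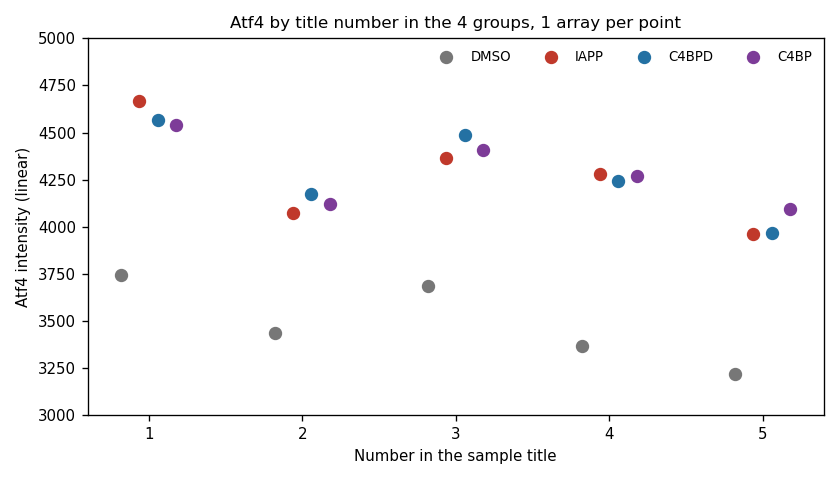
Atf4 intensity (linear axis that does not start at 0) by the number in the sample title, 1 point per array, coloured by group and set side by side within a number. DMSO is lowest at every number, and number 1 is highest and number 5 lowest in each group.

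Other genes of the pathway were taken from lists written from general knowledge of ATF4 and CHOP, with earlier results of these data known. Of 41 other ATF4 targets, 14 were higher and 0 lower in IAPP vs DMSO, 10 and 0 in C4BPD vs DMSO, and 17 and 1 (Vegfa, -0.15) in C4BP vs DMSO, beside 3.38%, 1.93% and 5.96% of all genes called in either direction. List medians were 0.08, 0.08 and 0.11 on the log2 scale, and medians of all genes 0.002, -0.009 and 0.005. Slc1a4, a neutral amino acid transporter, rose by 0.72, 0.78 and 0.89 in IAPP, C4BPD and C4BP (limma, adjusted p = 8.09e-07, 2.6e-07 and 1.82e-08). Aars1, the alanyl-tRNA synthetase, rose by 0.36, 0.29 and 0.40, and Psat1, of serine synthesis, by 0.33, 0.41 and 0.45. Slc6a9, a glycine transporter, rose by 0.50 in IAPP (adjusted p = 1.19e-06) and was lower in C4BPD than in IAPP, at -0.26 (adjusted p = 0.00116). In the interaction 1 of the 41, Slc1a4, was called lower, at -0.61 (limma, adjusted p = 0.0118), in the fit without a block, beside 0.0495% of all genes. With the title number as a block 6 of the 41 were lower in the interaction and 0 higher, beside 0.0991%. In C4BP vs IAPP 0 of the 41 were higher and 1 was lower, Txnip (-0.38), which lost its call in 14 of the 20 fits without 1 array. Of all genes 0.606% were called there. C4BPD vs IAPP had 2 higher (Pck2 and Ndrg1) and 2 lower (Slc6a9 and Gdf15), beside 5.46% of all genes. With the title number as a block these were 4 and 4, beside 10.5%. C4BP vs C4BPD had 2 higher (Slc6a9 and Gdf15) and 2 lower (Pck2 and Ndrg1), beside 2.37% of all genes. Of these, Slc6a9 lost its call in 4 of the 20 fits. TGATGNAA was found in the 250-base windows of 9 of the 36 matched list genes, beside 3.4% of all windows. Slc1a4 and Aars1 were among the 9. In the lists below it was found in 2 of 18 matched sensor genes, 2 of 12 relatives and 1 of 12 CHOP targets and death genes.

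Of 16 measured genes that sense the stress or set translation, IAPP vs DMSO had 1 higher and 1 lower (12.5% of the list, and 3.38% of all genes). C4BPD vs DMSO had 0 of either (1.93% of all genes), and C4BP vs DMSO 0 higher and 1 lower (6.25% of the list, and 5.96% of all genes). The eIF2 alpha kinases Eif2ak1, Eif2ak3 and Eif2ak4 did not pass in any comparison with DMSO, with differences from -0.15 to 0.10. Eif2ak3, which encodes PERK, the kinase of the ER membrane, was lower in C4BP than in IAPP, at -0.25 (adjusted p = 0.0389), a call lost in 13 of 20 fits without 1 array (adjusted p up to 0.12). The ER sensor Ern1, or IRE1, was 0.21 higher in IAPP than in DMSO (adjusted p = 0.0223), a call lost without DMSO 2, DMSO 3, IAPP 1, IAPP 4 or IAPP 5 (up to 0.0665) and with centred arrays (0.055). Xbp1, the message that IRE1 splices, fell by 0.16 in C4BP vs DMSO (adjusted p = 0.00104). In IAPP it was at -0.11, a call lost in 15 of 20 such fits. C4BPD vs IAPP had 1 lower, Ern1 (-0.20, lost in 6 of 20 such fits), beside 5.46% of all genes. With the title number as a block 3 were lower, beside 10.5%. By limma 0 of the 16 passed in C4BPD vs DMSO and in C4BP vs C4BPD, and 2 and 1 had an unadjusted p under 0.05 (12.2% and 13.7% of all genes).

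Among 15 relatives and partners of the 9 genes, Atf3 had the largest difference. Atf3, a repressor that ATF4 and CHOP are known to work with, read 230, 257, 262, 273 and 227 in DMSO and 450, 617, 365, 764 and 545 in IAPP. Its C4BPD arrays read 300, 247, 240, 230 and 271, and its C4BP arrays 310, 337, 314, 347 and 357. It rose by 1.09 on the log2 scale in IAPP (limma, adjusted p = 3.57e-05), did not pass in C4BPD (0.04) or C4BP (0.42), and was lower in C4BP than in IAPP at -0.68 (adjusted p = 0.0179; 0.0653 without IAPP 2). As with Ddit3 and Trib3, IAPP number 4 was the highest array. In IAPP vs DMSO 2 of the 15 were higher, Atf3 and the stress protein gene Nupr1 (0.46), and 0 lower. Of all genes 3.38% were called there in either direction. Nupr1 also stands in the list of other ATF4 targets, and its call and its TGATGNAA match are counted in both lists. In C4BPD vs DMSO 3 were higher, Jdp2 (0.40), Nfil3 (0.23) and Trib1 (0.16), and 0 lower, beside 1.93% of all genes. Nfil3 and Trib1 lost their calls with centred arrays (0.0533 and 0.0609). In C4BP vs DMSO 1 was higher, Jdp2 (0.36; 6.67% of the list, and 5.96% of all genes). C4BPD vs IAPP had 2 higher, Nfil3 and Jdp2, and 2 lower, Atf3 and Cebpa (5.46% of all genes), or 3 and 3 with the title number as a block (10.5%). Jdp2 lost its call in 4 of 20 fits without 1 array. In C4BP vs C4BPD 1 was lower, Nfil3 (-0.33), beside 2.37% of all genes called. Trib1 and Trib2 are paralogs of Trib3. Trib2 was at -0.13, -0.13 and -0.29 in IAPP, C4BPD and C4BP against DMSO, Chac2 at 0.09, 0.09 and 0.06, and Ppp1r15b, the constitutive partner of the same phosphatase, at 0.06, 0.06 and 0.09, none past the threshold. Sesn1 and Sesn3, relatives of Sesn2, did not pass in any of the 6 comparisons, nor did Lrp8, a receptor of the Vldlr family.

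In the fit without a block the list of CHOP targets and death genes had 0 of 15 higher in any comparison. In IAPP vs DMSO 2 were lower, Dnajc3 (-0.29) and Dnajb9 (-0.22), beside 3.38% of all genes called in either direction. In C4BPD vs DMSO these were 2, Dnajc3 (-0.32) and Hspa5 (-0.14), beside 1.93%. C4BP vs DMSO had 3 lower, Dnajc3 (-0.46), Dnajb9 (-0.35) and Hspa5 (-0.21), beside 5.96%. These 3 are chaperones or cochaperones of the ER lumen, not death genes, and whether CHOP controls them was not tested. Without a block no other gene of the list, Ero1a, Tnfrsf10b, Bcl2l11 and Pmaip1 among them, passed in a comparison with DMSO. The calls in C4BP vs DMSO held in all 20 fits without 1 array, at an adjusted p of at most 0.0028, while those in IAPP and C4BPD were each lost in 4 to 10 of the 20 (up to 0.138). Hspa5, the chaperone BiP, read 13095 to 13849 in DMSO, 12205 to 12599 in IAPP, 11837 to 12560 in C4BPD and 11256 to 11797 in C4BP. Its difference from DMSO did not pass in IAPP (-0.10, adjusted p = 0.0824), and its call in C4BPD was lost with centred arrays (0.0876). In C4BP vs C4BPD 1 was lower, Bcl2 (-0.19), a call lost in 15 of 20 such fits, beside 2.37% of all genes called. In C4BP vs IAPP and C4BPD vs IAPP 0 of 15 passed by limma without a block, and 3 and 4 had an unadjusted p under 0.05 (7.93% and 18.2% of all genes). With the title number as a block IAPP vs DMSO had 1 higher and 3 lower, beside 6.24% of all genes called. C4BPD vs DMSO then had 0 and 3 (4.39%), and C4BP vs DMSO 1 and 5 (10.4%). In C4BP vs IAPP 2 were lower (1.94%), in C4BP vs C4BPD 3 (5.27%), and in C4BPD vs IAPP 0 of 15 passed (10.5%).

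**Figure D5:**
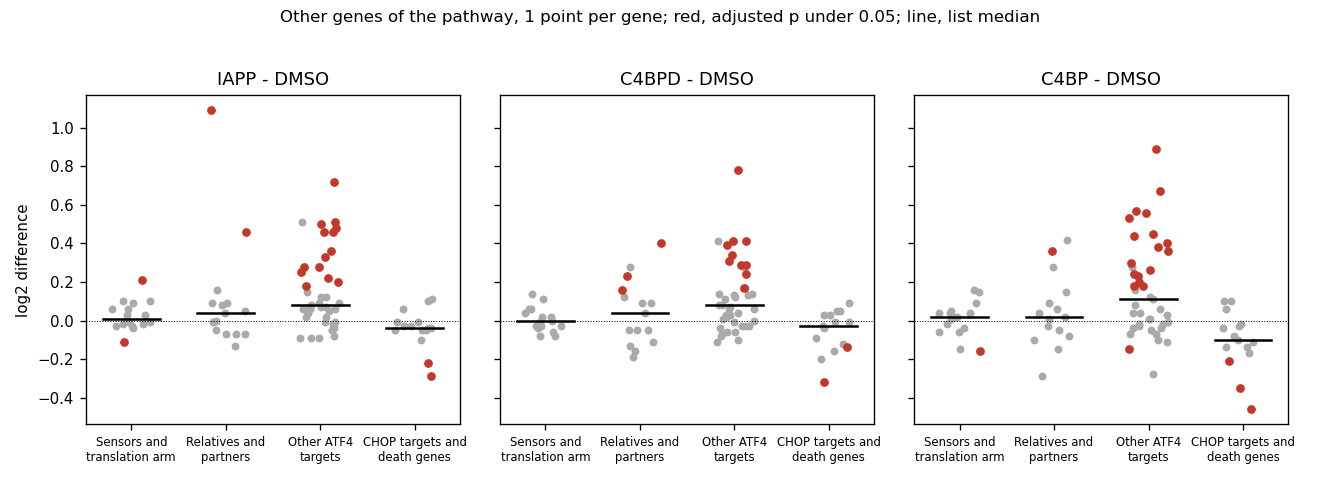
Log2 difference from DMSO of each measured gene of the 4 lists in IAPP, C4BPD and C4BP (1 point per gene, red where the adjusted p was under 0.05, black line the list median). Other ATF4 targets hold most of the red points above 0, up to 0.89 for Slc1a4 in C4BP. The red points in the list of CHOP targets and death genes are the ER chaperones and cochaperones Dnajc3, Dnajb9 and Hspa5, all below 0. The red point at 1.09 in the first panel is Atf3.

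The genes most like each of the 9, by Pearson correlation of log2 values over all 20 arrays, are given as a description, since arrays of a group share a treatment. Trib3 was nearest to Aars1 (0.949), Jund (0.933) and Slc7a1 (0.922), and Chac1 to Cars1 (0.962), Slc1a4 (0.951) and Psat1 (0.934). Atf5 was nearest to Shmt2 (0.948), Aars1 (0.943) and Asns (0.941), and Atf4 to Mars1 (0.944), Fam84b (0.910) and Cars1 (0.905). Many of these are tRNA synthetases or genes of amino acid transport and synthesis. Ddit3 lay near other genes, Dusp16 (0.901), Rab30 (0.887) and Atf3 (0.877), and its nearest among the 9 was Trib3 at 0.685. For Cebpb, Cebpg, Ppp1r15a and Vldlr the highest correlation with any gene was 0.712, 0.767, 0.834 and 0.803.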

How the data were processed

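RNA from 20 wells of INS-1 cells was hybridised to Affymetrix Rat Gene 2.0 arrays, 1 array per well and 5 per group. The authors deposited 1 normalized linear intensity per probe set and array, made in Affymetrix Expression Console, per the submitters' processing notes. Version and algorithm: not given in the sources used here. No scanner files or detection p-values were used. Of 36685 probe sets, 190 controls were left out, 18511 had 1 gene symbol, 575 several and 17409 none. A gene was represented by its brightest probe set with 1 symbol.

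Intensities were taken to log2 without a filter. All 20 arrays entered 1 limma model (limma 3.58.1, R 4.3.3, moderated two-sided tests) with a mean for each of 4 groups, which left 16 residual degrees of freedom. From it came 6 pairwise comparisons and the interaction, with p-values adjusted by Benjamini-Hochberg over 18166 genes and a threshold of 0.05. The scripts were tested on simulated data. No 2 arrays were identical. Same-numbered arrays deviated together from their group means in C4BPD vs IAPP (all 5 correlations over 0.1, from 0.152 to 0.305). Counts with the number as a block are therefore given there beside those without it. The differences, intervals and p-values printed for C4BPD vs IAPP are from the fit without a block. Every other comparison had a pair under 0.1. C4BP vs IAPP, with 4 of 5 over 0.1, nevertheless had the highest median, 0.318 against 0.169 in C4BPD vs IAPP. Members and lists were chosen with earlier results of these data known. Named are all members, fixed relatives of the members, the eIF2 kinases, Hspa5 and the 3 genes most like each member. Of each list, up to 3 genes past the threshold with the smallest p per comparison are named. Where up to 5 genes of a list were called in the fit without a block, all are named. Genes called with the block are named only in part. List genes not measured, for lack of a probe set with 1 symbol, included Eif2ak2, Eif2s3, Eif2b3, Impact, Cebpd, Map1lc3b, Bbc3 and Bax. Promoter windows are RefSeq's for GRCr8, and no coordinates were taken from the array. Alternatives were other scalings, a replicate block, array weights, fits of the compared groups alone, all probe sets, a filter on dim genes, the mean of a gene's probe sets, groups from the treatment field, and leaving out arrays. Plots used matplotlib 3.10.9 under Python 3.11.15.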

Additional observations from a re-analysis of the deposited data

Results flagged for a closer look

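In the C4BP group, the array numbered 1 stood apart from the other 4 for Chac1, at 773 against 802 for the nearest, a gap of 0.758 of the group's range where 0.71 is the limit at 5 arrays. The group spans only 773 to 811. This was 1 of 36 groups of 5 looked at, and chance gives about 1 in 20.

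The IAPP difference was smaller with C4BP than without it for Trib3, by -1.0 on the log2 scale, and for Chac1, by -0.87, both called in the interaction over all genes. The genes were chosen with this contrast in view, and the calls were lost in 13 and 5 of 32 other settings.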

How the results depend on the processing

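Of 17 called differences of the 9 genes, 12 kept their call in all 32 other settings apart from the treatment field, and 5 lost it in some. Those were Atf4 in IAPP vs DMSO (0.28) and C4BPD vs DMSO (0.29) without all arrays of number 4, Trib3 in C4BPD vs IAPP (10 settings, -0.55 to -0.27 over all), Trib3 in the interaction (13 settings, -1.08 to -0.88) and Chac1 in the interaction (5 settings, -0.98 to -0.76: without number 1, 3, 4 or 5, or with all probe sets). The cause was not tested.

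Members called in C4BP vs IAPP went from 0 to 1 (Ddit3) with the replicate block and to 1 with dim genes left out. Members called in C4BPD vs IAPP went from 2 to 1 in the fit of the compared groups alone and to 1 with all probe sets, where the interaction had 0. With the replicate block the interaction had 3 members, Atf4 being added (adjusted p = 0.00311), 6 other ATF4 targets and 1 relative, all lower, beside 0.0991% of all genes, and the comparisons with DMSO had 5, 4 and 4. Calls over all 7 contrasts were 5 for sensors, 12 for relatives, 52 for other ATF4 targets and 8 for the CHOP list. They were 2 for sensors and 5 for the CHOP list with centred arrays. With the replicate block they were 9 for sensors, 24 for relatives and 18 for the CHOP list. The block also raised the share of all genes called, from 3.38% to 6.24% in IAPP vs DMSO. In C4BPD vs DMSO it went from 1.93% to 4.39%, and in C4BP vs DMSO from 5.96% to 10.4%. Such shares were not taken with centred arrays, compared groups alone, all probe sets, dim genes left out or arrays left out. Those counts describe the genes only.

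Leaving out 1 array, or all arrays of a number, gave 1 to 6 calls for sensors, 6 to 16 for relatives, 32 to 52 for other ATF4 targets and 3 to 8 for the CHOP list. It gave 0 to 1 members for the replicate number, 1 to 2 in C4BPD vs IAPP and 0 to 2 in the interaction.

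With groups taken from the treatment field, 0 members and 0 of all genes were called in any comparison or the interaction. Differences that changed sign were then, in IAPP vs DMSO, -0.09 for Trib3, -0.04 for Chac1, 0.00 for Atf4 and -0.09 for Atf5. In C4BPD vs DMSO they were -0.09 for Chac1, -0.05 for Atf4 and -0.06 for Atf5, and in C4BP vs DMSO -0.32 for Trib3, -0.44 for Chac1, -0.11 for Atf4 and -0.16 for Atf5. In C4BPD vs IAPP they were 0.09 for Trib3 and 0.01 for Ddit3. Every result here therefore rests on the titles.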
